A study of Mus musculus with 40 samples.

Results

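The 10 genes Trem2, Tyrobp, Apoe, Lpl, Fabp5, Cd63, Cst7, Gpnmb, Lgals3 and Axl, which mark lipid-laden and disease-associated phagocytes, were followed in CD11b+ cells of mouse brain. They were chosen by name, with earlier results of these data known. All 10 were found among the 54513 gene rows of each of 3 deposited expression tables. RNA was sequenced from CD11b+ cells sorted from the tumor-bearing or naïve hemispheres of male mice. In the first experiment, C57BL/6 mice carried GL261 murine glioma cells (tdTomato+ luc+) for 21 days post-implantation (DPI) and received water (vehicle), the integrin-blocking peptide 7aaRGD or its control 7aaRAE, each peptide at 2 mg/ml, from osmotic pumps, and naïve mice had no tumor, with 3 samples per group and 2 pooled animals per sample. In the second, GL261-bearing mice at 28 DPI were given vehicle (4 samples), 7aaRGD (4), anti-PD-1 (3) or 7aaRGD with anti-PD-1, here called the combination (3), with 1 animal per sample. The antibody was injected 4 times at 10 mg/kg and control animals received IgG. In the third, athymic nude mice, which lack mature T cells, carried the human glioma line U87-MG (RFP+) and received vehicle, 7aaRGD or 7aaRAE, with 3 samples of 2 pooled animals per group at 21 DPI. The labels of the 28 DPI samples name nude mice, whereas the methods of the study describe C57BL/6 mice for GL261, so the strain of these samples rests on the methods.

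TREM2 is a surface receptor of microglia and macrophages that binds lipids, lipoproteins and cell debris, and it signals through the adaptor DAP12, the product of Tyrobp. In neurodegeneration and demyelination, microglia that take up lipid-rich debris lose homeostatic transcripts and gain a set of genes for lipid transport and lysosomal function, part of which depends on TREM2. Related transcripts are found in lipid-laden macrophages of tumors and atherosclerotic plaques. The genes followed here fall into receptors and their adaptor (Trem2, Tyrobp, Axl), lipid carriers and enzymes (Apoe, Lpl, Fabp5), endolysosomal proteins (Cd63, Cst7, Gpnmb) and a secreted lectin (Lgals3).

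Expression is given as RPKM, which corrects reads for the length of a gene and for the size of a library, so levels can be set side by side between genes. The files hold no read numbers, so depth is unknown and no counting interval can be given. Between 9355 and 9854 genes per sample reached 1 RPKM. The 6 markers of CD11b+ leukocytes (Itgam, Ptprc, Aif1, Csf1r, Fcgr3, Lyz2) were above 1 RPKM in each of the 11 groups. Of 6 T cell markers, Cd3e, Cd3d, Cd3g and Cd8a had a mean under 1 RPKM in each of them. Trac was at 1 RPKM or more in the tumor-bearing GL261 groups at 21 DPI and in both groups given anti-PD-1. Cd4 was so in both peptide groups of GL261 at 21 DPI and with the combination. Genes were compared with limma on log2(RPKM + 1), a scale that understates the change of genes with few RPKM, and a gene was called past the threshold at a Benjamini-Hochberg adjusted p under 0.05 over all genes tested. The 3 tables were normalized separately, so tests were made within a table, and levels from different tables are given without one. In RNA of bulk-sorted cells, fewer cells of a type and less RNA per cell cannot be told apart.

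The sequences before the start sites of Trem2 and Gpnmb are shown because these genes moved furthest in opposite directions between naïve and glioma-bearing brain. They are RefSeq windows on GRCm38.p6 of 250 bases that end at the base before the RefSeq start, read 5′ to 3′ on the plus strand, chr17:48346151-48346400 and chr6:49036268-49036517. Capitals mark a match to 1 of 6 motifs searched on both strands: CACGTG, which is an E-box that MiT/TFE factors also bind, TGANTCA, the AP-1 type element, GAGGAAGT, a core site of the myeloid factor PU.1, TATAAA, found in core promoters, and GGGCGG, bound by Sp1, besides the direct repeat 4 element of nuclear receptors.
Trem2: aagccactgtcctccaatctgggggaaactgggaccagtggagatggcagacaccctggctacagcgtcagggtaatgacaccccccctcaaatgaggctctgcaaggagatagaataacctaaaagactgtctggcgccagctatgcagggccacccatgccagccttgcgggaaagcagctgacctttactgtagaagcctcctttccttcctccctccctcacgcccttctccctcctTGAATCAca
Gpnmb: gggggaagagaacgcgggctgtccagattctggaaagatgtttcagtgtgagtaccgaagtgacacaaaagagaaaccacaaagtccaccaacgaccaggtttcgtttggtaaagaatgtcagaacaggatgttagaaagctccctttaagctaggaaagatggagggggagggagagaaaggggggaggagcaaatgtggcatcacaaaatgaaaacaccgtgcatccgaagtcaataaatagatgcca
The single match of these 2 windows was TGANTCA, which began 9 bases before the start of Trem2. It was held by 6.75% of all 32851 RefSeq windows of this length. Windows were matched for 7 of the 10 genes (not for Tyrobp, Lpl and Fabp5). None of the 7 held CACGTG, GAGGAAGT or the direct repeat 4, against 6.02%, 2.44% and 0.0213% of all windows. GGGCGG was in 2 of the 7 (Lgals3 and Axl) and in 32.7% of all windows, and TATAAA was in 1 of the 3 windows of Apoe and in 12.4% of all.

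To see how glioma alters these transcripts, vehicle samples at 21 DPI were compared with naïve brain. Gpnmb, Fabp5, Lgals3, Axl, Cst7 and Apoe were higher in glioma-bearing brain, Trem2 was lower, and Tyrobp, Lpl and Cd63 did not pass the threshold. Thus 6 of 10 members were past the threshold in the higher direction and 1 in the lower. Over all 9760 genes tested, 82.9% were past it, 34.7% higher and 48.2% lower, so 7 of 10 members is no higher a share than that of all genes, and sizes are given. The median log2 difference was 2.73 over the 10 members and -0.14 over all genes tested. The groups did not overlap in 7 of the 10 members and in 85.4% of all genes tested. The 10 genes together held 0.693% to 0.751% of the summed RPKM in naïve and 1.45% to 2.29% in vehicle samples.

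Among the receptors, Trem2 (chr17:48346401-48354147 on mm10, the build of the files) was at 259, 267 and 231 RPKM in the naïve and 75.6, 53.8 and 55.5 RPKM in the vehicle samples. All 3 vehicle samples lay far under the 3 naïve samples, with a mean 4.09-fold lower (log2 difference -2.03, SE 0.13, adjusted p = 1.76e-06). Tyrobp (chr7:30413760-30417585), whose product carries the TREM2 signal, was at 1141, 1156 and 1065 RPKM in naïve and 1287, 1097 and 1254 RPKM in vehicle samples. The groups overlapped, and Tyrobp ranked between 22 and 29 among protein-coding genes by mean level in all 11 groups of the series (log2 difference 0.11, SE 0.082, adjusted p = 0.235). Axl (chr7:25757273-25788705), a TAM receptor kinase for the uptake of dying cells, had 15.2, 16.8 and 17.3 RPKM in naïve and 249, 249 and 234 RPKM in vehicle samples. Its vehicle samples were close to each other, and their mean was 14.9-fold that of naïve brain (log2 difference 3.82, SE 0.064, adjusted p = 4.47e-09). The receptor pair of Trem2 and Tyrobp thus parted at the level of RNA, from a ratio of their means of 4.44 in naïve to 19.7 in vehicle samples.

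Among the lipid carriers, Apoe (chr7:19696109-19699188), the apolipoprotein of brain lipoproteins, rose from 457, 576 and 604 RPKM in naïve to 4755, 2790.0 and 2293 RPKM in vehicle samples. There was no overlap, although vehicle sample 1 had a much higher level than sample 3, and the mean was 6.01-fold higher (log2 difference 2.52, SE 0.25, adjusted p = 2.61e-05). By mean level Apoe ranked 48th among protein-coding genes in naïve brain and 6th with vehicle. Fabp5 (chr3:10012548-10016607), a cytosolic fatty acid carrier, was at 0.403, 0.306 and 0.351 RPKM in naïve and 124, 135 and 59.8 RPKM in vehicle samples. It went from under 1 RPKM to a level near that of Trem2 or above it (log2 difference 6.22, SE 0.27, adjusted p = 2.28e-07), and vehicle sample 3 was again the lowest. Lpl (chr8:68880491-68907448), which releases fatty acids from lipoproteins, was low throughout, with 2.27, 2.14 and 2.30 RPKM in naïve and 3.49, 1.59 and 2.83 RPKM in vehicle samples. Its vehicle samples lay on both sides of the naïve ones (log2 difference 0.13, SE 0.18, adjusted p = 0.516).

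Among the endolysosomal genes, Gpnmb (chr6:49036546-49070929), a transmembrane glycoprotein of phagocytes, was at 0.135, 0.0209 and 0.0864 RPKM in naïve and 93.7, 112 and 109 RPKM in vehicle samples. It had the largest difference of the 10 on this scale and was next to undetected in naïve brain (log2 difference 6.61, SE 0.08, adjusted p = 2.74e-09). Cst7 (chr2:150570415-150578944), which encodes the cysteine protease inhibitor cystatin F, had 6.84, 6.84 and 8.78 RPKM in naïve and 71.1, 76.99 and 45.9 RPKM in vehicle samples. Its groups did not overlap, and the mean was 8.64-fold higher (log2 difference 2.93, SE 0.19, adjusted p = 1.82e-06). Cd63 (chr10:128900989-128912822), a tetraspanin of late endosomes and lysosomes, had 42.1, 45.1 and 40.3 RPKM in naïve and 90.7, 67.6 and 41.2 RPKM in vehicle samples. Vehicle sample 3 fell within the naïve range and the other two were above it (log2 difference 0.57, SE 0.24, adjusted p = 0.0577). Lgals3 (chr14:47367751-47386160), the secreted lectin galectin-3, was at 7.77, 6.56 and 6.47 RPKM in naïve and 469, 489.6 and 445 RPKM in vehicle samples. Both groups were tight, and the mean was 67.5-fold higher (log2 difference 5.89, SE 0.076, adjusted p = 3.02e-09).

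The 7 calls of this comparison held in all 15 alternative settings, while the 3 other members were called in some. Cd63 passed without vehicle sample 3 (adjusted p = 0.000282), and Tyrobp and Lpl passed without vehicle sample 2 (adjusted p = 0.035 and 0.00737), while Lpl was at -0.04 without vehicle sample 1. Scaling by the median of ratios moved the median over all genes from -0.14 to 0.0053, and Tyrobp and Cd63 then also passed as higher (log2 difference 0.29 and 0.74, adjusted p = 0.015 and 0.0216).

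**Figure D1:**
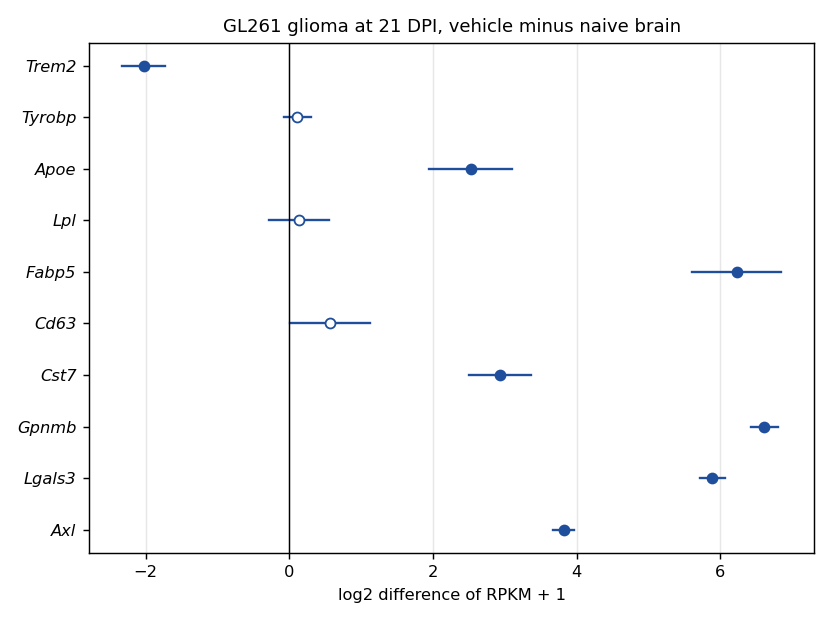
Difference between vehicle and naïve samples at 21 DPI for the 10 genes, in log2 of RPKM + 1 (x axis). Circles give the estimate and lines its 95% interval from limma, and filled circles are past the threshold. The 6 higher members lie to the right of 0, from Apoe at 2.52 to Gpnmb at 6.61, and Trem2 lies to the left at -2.03.

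The other genes of these pathways are given from lists written from general knowledge, with earlier results of these data known. Their counts stand beside 82.9% of all genes past the threshold, 34.7% higher and 48.2% lower. Of 26 further disease-associated microglia genes, 16 were higher and 7 lower in vehicle than in naïve samples, with a median log2 difference of 0.86. They included Clec7a (11.7 to 477 RPKM, log2 difference 5.19, adjusted p = 1.38e-07), which encodes the receptor Dectin-1, and Spp1 (2.69 to 94.8 RPKM, log2 difference 4.62, adjusted p = 7.77e-07), which encodes osteopontin. Itgax (6.60 to 134 RPKM, log2 difference 4.15, adjusted p = 8.26e-09) and Capg (10.9 to 168 RPKM, log2 difference 3.83, adjusted p = 4.47e-09) rose as well. All 14 homeostatic microglia genes fell, with a median of -3.33, among them Fcrls (1600.4 to 80.4 RPKM, log2 difference -4.37, adjusted p = 8.95e-07), Gpr34 (497 to 27.9 RPKM, log2 difference -4.16, adjusted p = 4.92e-07), the purinergic receptor gene P2ry12 (1736 to 104 RPKM, log2 difference -4.08, adjusted p = 1.67e-07) and the transcription factor gene Sall1 (286 to 25.3 RPKM, log2 difference -3.46, adjusted p = 1.34e-08). Trem2 therefore changed in the direction of the homeostatic list, and the 6 called higher members in that of most disease-associated genes.

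Of the genes for lipid uptake, storage and efflux, 15 higher and 5 lower of 21 tested passed the threshold (median 1.60). Rises included those of the scavenger receptor gene Msr1 (1.32 to 50.02 RPKM, log2 difference 4.42, adjusted p = 1.5e-07), of Nr1h3 (0.444 to 26.7 RPKM, log2 difference 4.25, adjusted p = 3.57e-08), which encodes the sterol-sensing receptor LXRα, and of the triglyceride synthesis gene Dgat2 (0.321 to 8.65 RPKM, log2 difference 2.87, adjusted p = 1.68e-08). Around TREM2 and DAP12, 4 higher and 8 lower of 16 tested passed (median -0.11), under the 82.9% of all genes that passed. The receptor genes Sirpb1a (0.849 to 19.1 RPKM, log2 difference 3.43, adjusted p = 7.87e-08) and Trem1 (0.973 to 18.3 RPKM, log2 difference 3.23, adjusted p = 1.83e-06), whose products also pair with DAP12, rose. The siglec gene Cd33 (86.2 to 23.6 RPKM, log2 difference -1.83, adjusted p = 1.48e-07) and Inpp5d (221 to 84.7 RPKM, log2 difference -1.38, adjusted p = 7.53e-07), a lipid phosphatase that dampens this signal, fell.

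Among TAM receptors, their ligands and genes of dead-cell uptake, 3 higher and 7 lower of 10 tested passed (median -1.78), beside 82.9% of all genes. Axl was not part of this list of 11. The feedback inhibitors Socs1 (1.29 to 46.1 RPKM, log2 difference 4.32, adjusted p = 2.29e-07) and Socs3 (39.4 to 401 RPKM, log2 difference 3.31, adjusted p = 3.1e-08) rose, while Itgb3 (27.1 to 2.98 RPKM, log2 difference -2.84, adjusted p = 6.39e-07), an integrin subunit, and Pros1 (134 to 20.4 RPKM, log2 difference -2.67, adjusted p = 5.78e-08), a bridging ligand of TAM receptors, fell. Of the 4 MiT/TFE factors, which drive lysosomal genes, Tfec (0.150 to 9.16 RPKM, log2 difference 3.07, adjusted p = 9.27e-06) rose, and Tfe3 (26.4 to 14.97 RPKM, log2 difference -0.78, adjusted p = 2.54e-06) and Tfeb (15.2 to 9.70 RPKM, log2 difference -0.60, adjusted p = 3.15e-05) fell.

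Markers of cell types moved in the same comparison, in which 82.9% of all genes passed the threshold. The 7 microglia markers summed to 13416 to 13753 RPKM in naïve and 1128 to 1632 RPKM in vehicle samples, with 7 of 7 lower. The 7 monocyte/macrophage markers summed to 57.7 to 65.6 RPKM in naïve and 3061 to 3888 RPKM in vehicle samples, with 7 of 7 higher. Neutrophil markers summed to 262 to 382 RPKM and 60.4 to 190.0 RPKM, and NK cell markers to 0.354 to 0.571 RPKM and 10.8 to 22.9 RPKM, with 1 neutrophil marker higher and 3 lower of 6. None of the 6 NK markers reached 1 RPKM in naïve brain. The part of these cell types in the change of Trem2 and of the 6 higher members was not tested.

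Across the 3 tables, Apoe had the highest level of the 10 genes in every tumor-bearing group and Tyrobp the next, and the naïve samples had them in the opposite order. With vehicle, Apoe was at 15219, 14788, 14296 and 11366 RPKM in GL261 at 28 DPI and at 11245, 6768 and 8631 RPKM in U87-MG. It was the protein-coding gene with the highest mean at 28 DPI with vehicle, and it ranked 2nd in U87-MG. The 10 genes held 4.38% to 5.46% of the summed RPKM with vehicle at 28 DPI and 2.87% to 4.42% in U87-MG, most of it from Apoe. Trem2 was at 115, 116, 97.6 and 97.7 RPKM at 28 DPI and 199.9, 217 and 174 RPKM in U87-MG, so the vehicle samples of the 3 tables did not overlap. Tyrobp lay between 946 and 1439 RPKM over all 35 samples, the narrowest range of the 10 as a ratio.

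Gpnmb set the models apart most. It was at 136, 186, 107 and 214 RPKM in vehicle samples at 28 DPI but at 1.03, 0.418 and 0.497 RPKM in those of U87-MG, where it stayed at or under 1.03 RPKM in all 9 samples. Fabp5 was at 45.2, 59.2, 41.4 and 74.6 RPKM at 28 DPI and at 3.71, 4.22 and 4.84 RPKM in U87-MG, and Lgals3 at 259, 242, 239.7 and 342 and at 20.9, 21.7 and 24.2 RPKM. Axl was at 240.0, 288, 256 and 294 and at 106, 148 and 149 RPKM. With vehicle these 4 genes were thus at lower values in U87-MG than in any tumor-bearing GL261 sample with vehicle, while the U87-MG values of Apoe, Cst7, Cd63 and Lpl lay within the range of the GL261 vehicle samples. Microglia markers summed to 7116 to 8713 RPKM in U87-MG and 1294 to 1859.6 RPKM in GL261 vehicle samples at 28 DPI, and monocyte/macrophage markers to 182 to 238 RPKM and 1372 to 1897 RPKM. In GL261 vehicle samples at 21 DPI these sums were 1128 to 1632 RPKM and 3061 to 3888 RPKM. Tumor line and table differ together between GL261 and U87-MG samples, as does host strain, which at 28 DPI rests on the methods. The GL261 samples at 28 DPI also differ from U87-MG in day and in animals per sample (1 against 2). The parts of these factors cannot be told apart.

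**Figure D2:**
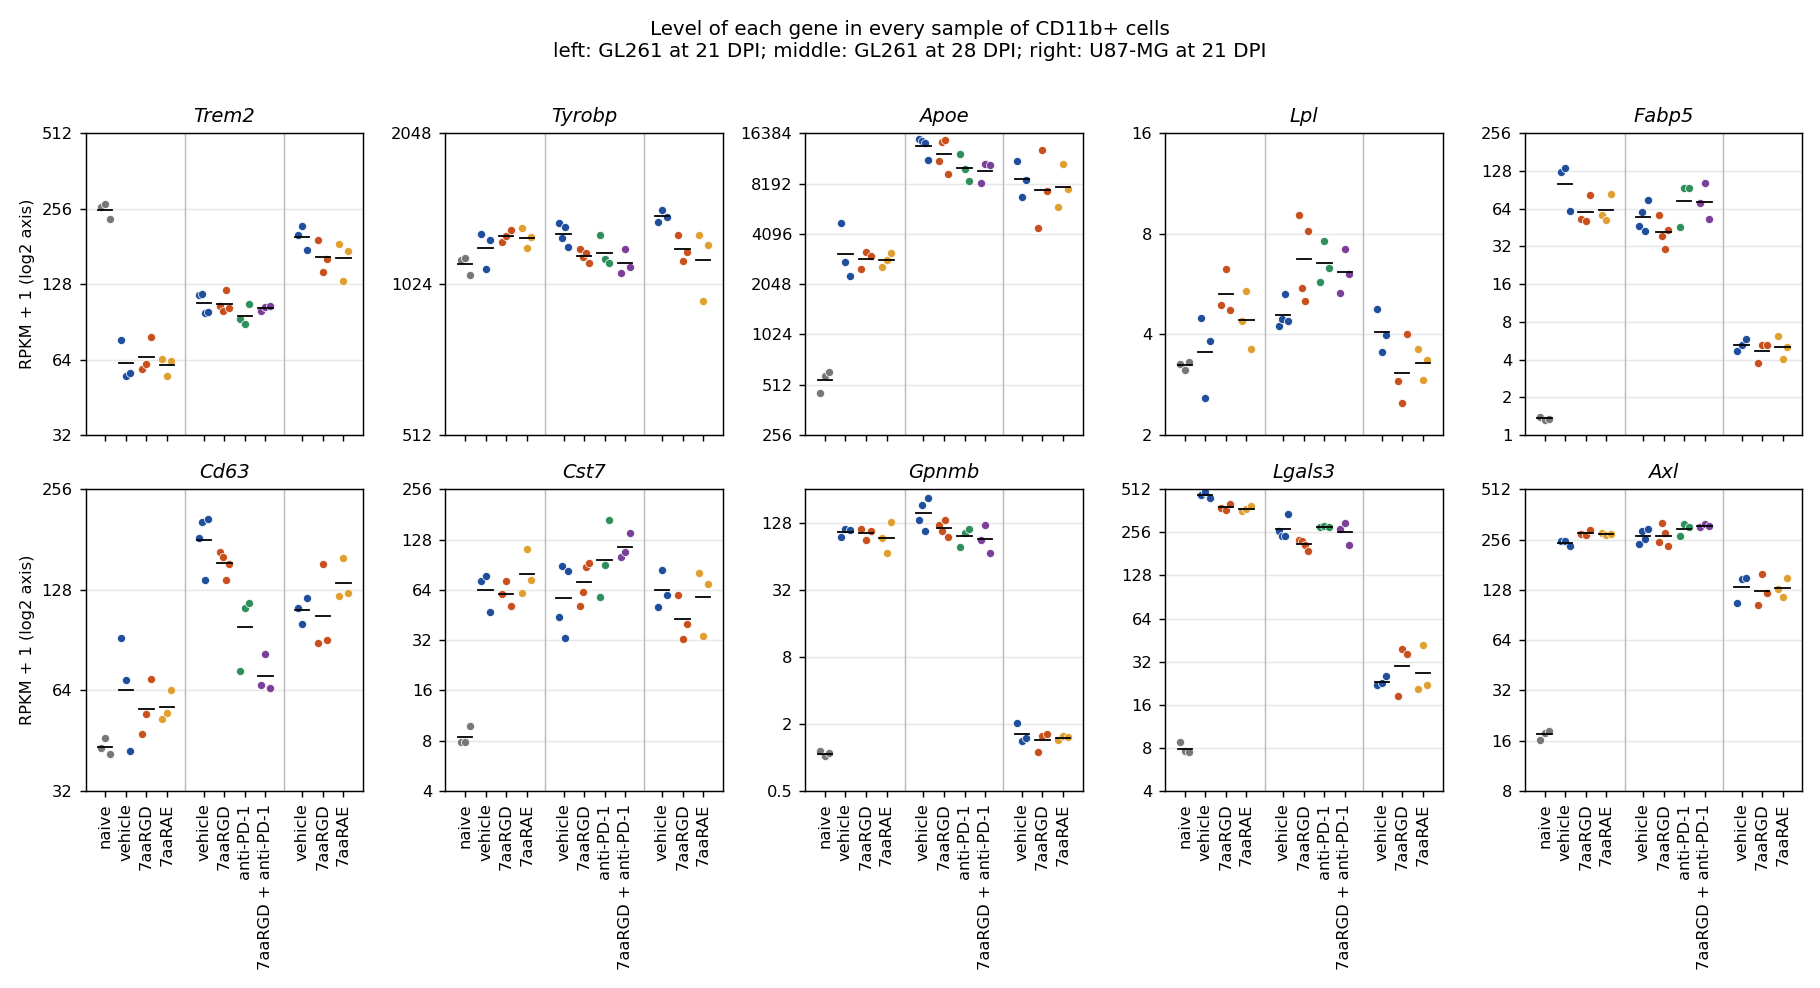
RPKM + 1 of the 10 genes in each of the 35 samples (y axis, log2 scale, its own range in each panel), by treatment (x axis) and table. Points are samples and black lines the mean on the log scale. Among GL261 samples, naïve ones are highest for Trem2 and lowest for Gpnmb, Fabp5, Lgals3, Axl, Cst7 and Apoe, and Gpnmb, Fabp5 and Lgals3 are low in U87-MG.

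The effect of integrin blockade was asked first at 21 DPI in GL261. No member passed the threshold with 7aaRGD against vehicle, where 0.148% of the 9469 genes tested did (14 genes), or with 7aaRAE against vehicle, where 0% did. At an unadjusted p under 0.05, limma gave 4 of 10 members and 1284 genes (13.6%) for 7aaRGD, and 2 of 10 members and 601 genes (6.35%) for 7aaRAE. Groups without overlap were found for 3 members with 7aaRGD, against 17.6% of all genes, and in 2 with 7aaRAE, against 12.6%. The 2 peptide groups share the vehicle samples, so their values are set side by side.

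Lgals3 had 469, 489.6 and 445 RPKM with vehicle, 378, 368 and 403 with 7aaRGD and 363, 371 and 388 with 7aaRAE. All 6 peptide samples were under the 3 vehicle samples, and the log2 difference was -0.29 for 7aaRGD (SE 0.066, adjusted p = 0.156) and -0.32 for 7aaRAE (SE 0.066, adjusted p = 0.719). Axl had 275, 272 and 292 RPKM with 7aaRGD and 279, 273 and 277 with 7aaRAE, all above the vehicle samples. Its differences were 0.19 (SE 0.059, adjusted p = 0.248) and 0.18 (SE 0.059, adjusted p = 0.719). Lpl was at 3.91, 5.28 and 3.74 RPKM with 7aaRGD, above the vehicle samples, and at 3.38, 4.40 and 2.62 with 7aaRAE, overlapping them. Its difference with 7aaRGD was 0.57 (SE 0.21, adjusted p = 0.296).

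Fabp5 was at 51.5, 49.8 and 80.6 RPKM with 7aaRGD and 56.4, 50.9 and 82.6 with 7aaRAE. Vehicle sample 3 lay among the peptide samples and the other two far above, which left a difference of -0.75 for 7aaRGD with a 95% interval of -1.46 to -0.042. Apoe, Cd63, Cst7 and Gpnmb overlapped between all 3 groups, and 7aaRGD minus vehicle was -0.11 (-0.62 to 0.40), -0.19 (-0.75 to 0.37), -0.081 (-0.64 to 0.47) and -0.035 (-0.49 to 0.42). Trem2 was at 57.4, 60.2 and 78.1 RPKM with 7aaRGD and 63.1, 54.2 and 62.3 with 7aaRAE, within or next to the vehicle range and far from the naïve samples (-0.25 to 0.42 as the 95% interval of 7aaRGD minus vehicle). Tyrobp differed by 0.078 (-0.098 to 0.25) with 7aaRGD.

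No cell type marker passed the threshold with either peptide, but summed levels lay apart in some lists. Microglia markers summed to 1128 to 1632 RPKM with vehicle, 1679 to 2213 RPKM with 7aaRGD and 1456 to 1821 RPKM with 7aaRAE, so the 7aaRGD samples lay above vehicle without overlap. Monocyte/macrophage markers summed to 3061 to 3888 RPKM, 2593 to 2945 RPKM and 2936 to 3046 RPKM, and those of both peptide groups lay under vehicle. With 7aaRGD, T cell markers (0.849 to 4.76 RPKM with vehicle, 5.79 to 11.2 RPKM with 7aaRGD) and dendritic cell markers (65.9 to 74.2 and 80.1 to 96.1) also lay above vehicle. So did oligodendrocyte lineage (13.8 to 18.1 and 19.5 to 24.5) and neuron markers (1.67 to 2.78 and 3.20 to 5.77). With 7aaRAE these lists overlapped vehicle. Of the 14 homeostatic microglia genes, 13 had a difference above 0 with 7aaRGD (median 0.40) and 14 with 7aaRAE (median 0.19). The medians over all genes tested were 0.021 and 0.0048. In U87-MG the signs were the other way, with 1 of the 14 above 0 with 7aaRGD (median -0.18) and 0 with 7aaRAE (median -0.32). The part of these cell types in the values of Lgals3, Axl, Lpl and Fabp5 in GL261 was not tested.

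The 2 peptides differ in the integrin-binding motif, RGD (arginine, glycine, aspartic acid) in one and RAE (arginine, alanine, glutamic acid) in the other, and were compared at the same dose and time in 2 pairs of groups, 1 per model. In GL261 at 21 DPI no member passed the threshold (0% of genes did). The groups overlapped in all 10 members (11.4% of genes did not overlap). At an unadjusted p under 0.05 there were 0 of 10 members and 523 genes (5.52%) by limma. The differences of 7aaRGD minus 7aaRAE were bounded most closely for Axl, at 0.018 (-0.12 to 0.15), Lgals3, at 0.035 (-0.11 to 0.18), and Tyrobp, at 0.013 (-0.16 to 0.19). For Trem2 the interval was -0.22 to 0.45, for Apoe -0.49 to 0.53, for Lpl -0.22 to 0.73 and for Fabp5 -0.77 to 0.64. For the endolysosomal genes it was -0.57 to 0.54 (Cd63), -0.94 to 0.17 (Cst7) and -0.32 to 0.58 (Gpnmb). A p that misses the threshold does not show that the peptides act alike, and these intervals are wide for most members.

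In GL261 at 28 DPI, 7aaRGD against vehicle again gave no member past the threshold (0.798% of 9772 genes, 78 genes). At an unadjusted p under 0.05 there were 3 of 10 members and 1437 genes (14.7%) by limma. Lgals3 had 259, 242, 239.7 and 342 RPKM with vehicle and 227, 222, 207 and 188 with 7aaRGD. All 4 treated samples were under the 4 vehicle samples (log2 difference -0.35, SE 0.12, adjusted p = 0.207). Tyrobp had 1353, 1267, 1332 and 1212 RPKM with vehicle and 1203, 1158, 1179.7 and 1126 with 7aaRGD, again without overlap (log2 difference -0.15, SE 0.062, adjusted p = 0.299). These were the 2 members whose groups did not overlap, against 8.1% of all genes. Lpl had 3.24, 3.45, 4.28 and 3.38 RPKM with vehicle and 8.12, 4.51, 4.03 and 7.16 with 7aaRGD, with overlap (log2 difference 0.56, SE 0.17, adjusted p = 0.159). The other lipid and endolysosomal members had differences of -0.18 (Apoe), -0.40 (Fabp5), -0.45 (Gpnmb), 0.32 (Cst7) and -0.23 (Cd63), with adjusted p from 0.36 to 0.713. Trem2 differed by -0.0026 (-0.18 to 0.18) and Axl by -0.0033 (-0.22 to 0.21), so their 95% intervals stayed within 0.22 of 0 on the log2 scale.

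In the U87-MG model, no member passed the threshold for 7aaRGD (0% of 9695 genes did), for 7aaRAE (0.0103%, 1 gene) or between the peptides (0%). At an unadjusted p under 0.05 limma gave 0, 1 and 0 of 9 members, and 366 (3.78%), 748 (7.72%) and 323 (3.33%) of all genes. Gpnmb had a mean under 1 RPKM and was not tested. Tyrobp had 1362, 1439 and 1391 RPKM with vehicle, 1283, 1135 and 1188 with 7aaRGD and 1285, 946 and 1227 with 7aaRAE, and both peptide groups were under the vehicle samples (log2 difference -0.22 and -0.29, adjusted p = 0.94 and 0.643). Cd63 had 112, 99.8 and 120.4 RPKM with vehicle and 122, 158 and 124 with 7aaRAE, without overlap (log2 difference 0.27, adjusted p = 0.723). Groups that did not overlap were thus found for 1 member with 7aaRGD, 2 with 7aaRAE and none between peptides, against 10.8%, 16.5% and 6.46% of genes.

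The samples within a U87-MG group were far apart for several members. Apoe had 4412, 13081 and 7383 RPKM with 7aaRGD and 5921, 10732 and 7627 with 7aaRAE, and Lgals3 17.3, 38.3 and 35.3 and 19.7, 41.05 and 21.1. The 95% interval of 7aaRGD minus vehicle was -1.08 to 0.66 for Apoe and -0.38 to 1.09 for Lgals3, so differences of the size seen for Lgals3 in GL261 could not be told from 0 here. Trem2 had 191, 142 and 160.1 RPKM with 7aaRGD and 184, 131 and 173 with 7aaRAE, overlapping the vehicle samples. With 7aaRGD and 7aaRAE against vehicle, the differences were -0.40 and -0.31 for Lpl, -0.16 and -0.068 for Fabp5 and -0.084 and -0.023 for Axl. Cst7 was at 58.3, 31.6 and 39.1 RPKM with 7aaRGD and 79.5, 33.00 and 68.8 with 7aaRAE, overlapping vehicle (7aaRGD minus vehicle -0.57, -1.35 to 0.20). Between the peptides, the intervals were -0.34 to 0.38 for Trem2, -0.22 to 0.36 for Tyrobp and -1.21 to 0.34 for Cst7. Those of the other 6 tested were -0.93 to 0.81 (Apoe), -0.50 to 0.32 (Lpl), -0.50 to 0.32 (Fabp5), -0.80 to 0.13 (Cd63), -0.59 to 0.88 (Lgals3) and -0.48 to 0.36 (Axl). Neutrophil markers summed to 48.8 to 82.8 RPKM with vehicle, 66.7 to 332 RPKM with 7aaRGD and 24.3 to 90.5 RPKM with 7aaRAE. NK cell markers summed to 6.68 to 17.7 RPKM, 1.24 to 5.99 RPKM and 0.200 to 1.79 RPKM, without overlap between vehicle and either peptide. Proliferation markers lay under vehicle (16.4 to 21.9 RPKM) with 7aaRGD (9.11 to 14.4 RPKM) but overlapped it with 7aaRAE. Dendritic cell markers lay under vehicle (4.49 to 6.56 RPKM) with 7aaRAE (3.85 to 4.44 RPKM) but overlapped it with 7aaRGD. The part of these cells in the values of Cst7, which NK cells also make, and of the other members was not tested.

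**Figure D3:**
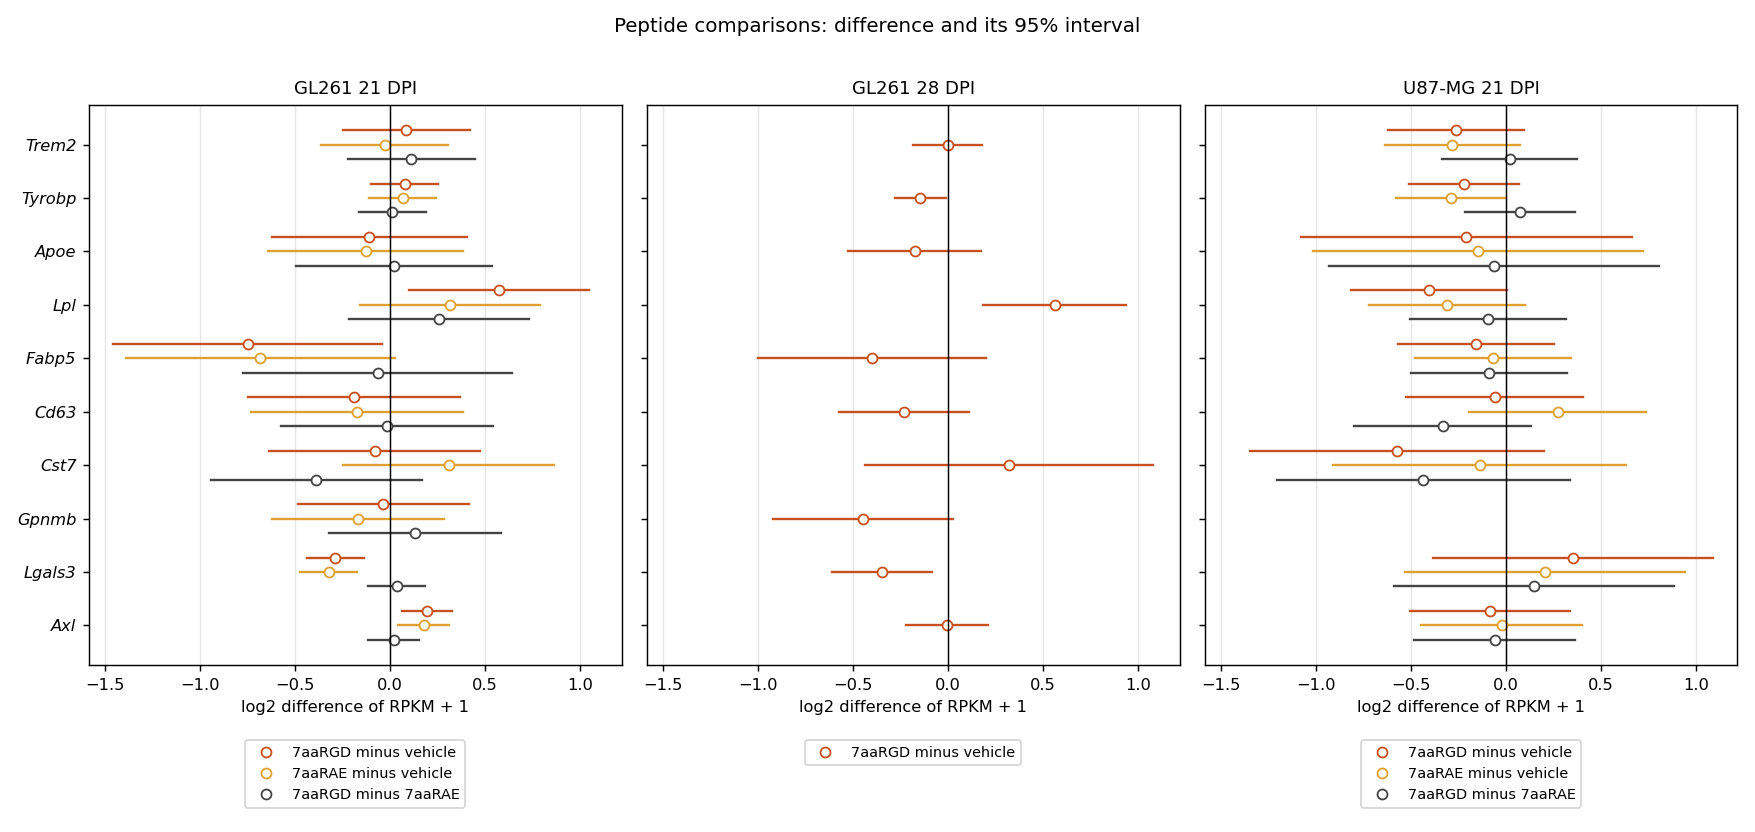
Differences for the peptides in each table, in log2 of RPKM + 1 (x axis), for the 10 genes (y axis). Circles are limma estimates and lines 95% intervals, and all circles are open since none passed the threshold. Lgals3 lies to the left of 0 with both peptides at 21 DPI (-0.29 and -0.32) and with 7aaRGD at 28 DPI (-0.35), and Gpnmb was not tested in U87-MG.

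Checkpoint blockade was examined at 28 DPI. With anti-PD-1 alone, Cd63 was lower than with vehicle and no other member passed the threshold. Of all genes, 23.1% passed, 10.9% higher and 12.2% lower, and 1 of 10 members is under that share. Cd63 had 182, 203, 136 and 207 RPKM with vehicle and 72.3, 112 and 116 with anti-PD-1. No sample of one group reached the other, and the mean was 1.82-fold lower (log2 difference -0.87, SE 0.17, adjusted p = 0.00353), a call that held in all 16 alternative settings. Gpnmb had 76.9, 102 and 112 RPKM with anti-PD-1, and 1 vehicle sample lay within that range (log2 difference -0.69, SE 0.24, adjusted p = 0.0509). Apoe had 12252, 9969 and 8462 RPKM and overlapped vehicle (log2 difference -0.45, SE 0.18, adjusted p = 0.0802). Gpnmb passed without vehicle sample 3 (adjusted p = 0.0151) and Apoe without anti-PD-1 sample 1 (adjusted p = 0.0489). The groups did not overlap in 2 members (Cd63 and Lpl), against 32.5% of genes. Lpl had 4.76, 6.63 and 5.32 RPKM with anti-PD-1, above the 4 vehicle samples (log2 difference 0.51, SE 0.19, adjusted p = 0.0653). It passed with only the groups compared in the fit (adjusted p = 0.0179) and after scaling by the median of ratios (0.0497). The other 6 members had differences of -0.16 (Trem2), -0.13 (Tyrobp), 0.13 (Axl), 0.43 (Fabp5), 0.75 (Cst7) and 0.06 (Lgals3).

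With the combination, Cd63, Gpnmb, Apoe and Tyrobp were lower than with vehicle and Cst7 was higher. These 5 of 10 members stand beside 43.3% of all genes, 17.6% higher and 25.7% lower. Of all calls, 40.5% were higher, and 50.9% after scaling by the median of ratios. The groups did not overlap in 6 members, against 48.9% of genes. Cd63 had 65.3, 81.5 and 63.9 RPKM, all far under the vehicle samples, and the mean was 2.59-fold lower (log2 difference -1.35, SE 0.17, adjusted p = 5.34e-05). Gpnmb had 89.2, 122 and 68.2 RPKM, and 1 of them lay within the vehicle range (log2 difference -0.77, SE 0.24, adjusted p = 0.0182). Apoe had 8239.8, 10796 and 10552 RPKM, under each vehicle sample (log2 difference -0.50, SE 0.18, adjusted p = 0.0346). Tyrobp had 1078, 1204 and 1107 RPKM, a small shift with no overlap (log2 difference -0.19, SE 0.067, adjusted p = 0.0332).

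Cst7, which is also made by NK cells and cytotoxic T cells, had 43.3, 87.3, 31.8 and 81.9 RPKM with vehicle and 100.3, 107 and 139 with the combination. Its groups did not overlap, with vehicle samples spread widely (log2 difference 1.01, SE 0.38, adjusted p = 0.0453). The 6 NK cell markers summed to 3.19 to 9.66 RPKM with vehicle, with 3 of 6 at 1 RPKM or more, and to 21.2 to 64.6 RPKM with the combination, with 5 of 6. The 6 T cell markers summed to 1.23 to 2.31 RPKM, with 0 of 6 at 1 RPKM or more, and to 3.50 to 5.73 RPKM, with 2 of 6 (Trac and Cd4). Cd3e, Cd3d and Cd3g were under 1 RPKM in both. Dendritic cell markers summed to 1.00 to 2.86 RPKM and 12.4 to 16.6 RPKM, and microglia markers to 1294 to 1859.6 RPKM and 1835 to 1997 RPKM. Against vehicle, 43.3% of all genes passed, 17.6% higher and 25.7% lower. Higher were 4 of 5 NK markers tested, 2 of 2 dendritic cell, 4 of 7 microglia, 3 of 7 monocyte/macrophage, 2 of 2 endothelial and 1 of 3 astrocyte markers. The monocyte/macrophage sums overlapped, at 1372 to 1897 RPKM with vehicle and 1265 to 1799.5 RPKM with the combination. Lower were 2 of 5 proliferation, 1 of 1 neuron, 1 of 6 neutrophil and 1 of 4 border-associated macrophage markers. Of 5 oligodendrocyte lineage markers, 1 was higher and 2 were lower. The CD11b+ leukocyte markers summed to 4591 to 5198 RPKM with vehicle and 7319 to 9029 RPKM with the combination, with 4 of 6 higher and 1 lower. With anti-PD-1 alone, the NK markers summed to 3.99 to 48.7 RPKM, the dendritic cell markers to 4.04 to 17.4 RPKM and the microglia markers to 1400.1 to 2084 RPKM. In that comparison 0 of 7 microglia and 3 of 7 monocyte/macrophage markers were higher, beside 10.9% of all genes higher and 12.2% lower. Also higher were 2 of 2 dendritic cell, 2 of 2 endothelial and 1 of 5 NK markers. Of 6 CD11b+ leukocyte markers 2 were higher and 1 lower, and of 5 oligodendrocyte lineage markers 1 was higher and 2 lower. The part of these cells in the changes of Cd63, Cst7 and the other called members was not tested.

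Of the 5 calls, that of Cd63 held in all 16 alternative settings, and the other 4 did not. Leaving out 1 sample ended the call of Gpnmb for vehicle sample 4 (0.0531), combination sample 1 (0.0525) and combination sample 3 (0.098), with the adjusted p in brackets. It ended that of Apoe for vehicle sample 1 (0.0804), vehicle sample 2 (0.0749), vehicle sample 3 (0.0662), combination sample 1 (0.152) and combination sample 3 (0.0526). For Tyrobp the samples were vehicle sample 1 (0.0838), vehicle sample 2 (0.0514), vehicle sample 3 (0.0727), combination sample 1 (0.121) and combination sample 3 (0.096). For Cst7 they were vehicle sample 1 (0.105), vehicle sample 3 (0.121), combination sample 1 (0.0732), combination sample 2 (0.0805) and combination sample 3 (0.143). Scaling by the median of ratios ended the calls of Apoe (0.0745) and Tyrobp (0.148), and testing without a filter on low values those of Apoe (0.261), Tyrobp (0.124) and Cst7 (0.0786). The direction of each of the 5 members stayed as given in every setting. Lpl and Axl had 4.33, 6.22 and 5.06 and 304, 316 and 309 RPKM with the combination, above each vehicle sample. Lpl, Fabp5, Lgals3, Axl and Trem2 were not called, with differences of 0.43, 0.41, -0.065, 0.20 and -0.061 and adjusted p = 0.0808, 0.282, 0.713, 0.144 and 0.61. Lpl passed as higher after scaling by the median of ratios (0.0438) and with only the groups compared in the fit (0.0162).

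To see what each agent added to the other, the combination was compared with the single treatments. Against 7aaRGD alone, Cd63 was lower and Fabp5 higher, 2 of 10 members, where 36.5% of genes passed the threshold (13% higher, 23.5% lower). Of these calls 35.6% were higher, and 50.98% after scaling by the median of ratios. Cd63 had 165, 159, 136 and 152 RPKM with 7aaRGD, all above the combination (log2 difference -1.12, SE 0.17, adjusted p = 0.000384). Fabp5 had 56.4, 37.4, 29.6 and 42.6 RPKM with 7aaRGD and 70.4, 102 and 51.5 with the combination, with overlap (log2 difference 0.81, SE 0.30, adjusted p = 0.0484). Its call ended without 7aaRGD sample 2 (0.0864), 7aaRGD sample 3 (0.117), 7aaRGD sample 4 (0.0725), combination sample 1 (0.104) and combination sample 2 (0.2), with the adjusted p in brackets. Lgals3 passed as higher without combination sample 3 (adjusted p = 0.0273) and Axl without 7aaRGD sample 2 (adjusted p = 0.0313). The groups did not overlap in 2 members (Cd63 and Cst7), against 40.3% of genes. The 8 members not called had differences of -0.059 (Trem2), -0.048 (Tyrobp), 0.21 (Axl), -0.32 (Apoe), -0.13 (Lpl), 0.69 (Cst7), -0.32 (Gpnmb) and 0.28 (Lgals3). With only the groups compared in the fit Cst7 passed as higher (adjusted p = 0.04), and after scaling by the median of ratios Lgals3 did (0.0403).

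Against anti-PD-1 alone, no member passed with the combination (0.0409% of genes, 4 genes), and limma gave 1 of 10 members and 1469 genes (15.03%) at an unadjusted p under 0.05. That member was Cd63 (-0.48, 95% interval -0.88 to -0.087, adjusted p = 0.242). The groups overlapped in all 10 members (21.5% of genes did not overlap). The other 9 had differences of 0.10 (Trem2), -0.068 (Tyrobp), 0.071 (Axl), -0.046 (Apoe), -0.083 (Lpl), -0.019 (Fabp5), 0.26 (Cst7), -0.081 (Gpnmb) and -0.13 (Lgals3). An interaction term asked whether the combination departed from the sum of the single treatments. No member passed (0% of genes), and at an unadjusted p under 0.05 there were 1 of 10 members and 798 genes (8.17%) by limma. The interaction was -0.25 (-0.77 to 0.27) for Cd63, 0.37 (-0.35 to 1.09) for Gpnmb and -0.64 (-1.22 to -0.07) for Lpl. For the others it was 0.10 (Trem2), 0.077 (Tyrobp), 0.074 (Axl), 0.13 (Apoe), 0.38 (Fabp5), -0.058 (Cst7) and 0.22 (Lgals3). Lpl was the member under an unadjusted p of 0.05, and its mean was 3.59 RPKM with vehicle and 5.96, 5.57 and 5.20 RPKM with 7aaRGD, anti-PD-1 and both. The Cd63 means at 28 DPI ran from vehicle (182 ± 32.8 RPKM, SD, n = 4) to 7aaRGD (153 ± 12.5 RPKM, n = 4), anti-PD-1 (100.1 ± 24.2 RPKM, n = 3) and the combination (70.2 ± 9.76 RPKM, n = 3). The first and the last of these steps did not pass the threshold, and the step from 7aaRGD to anti-PD-1 was not tested.

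**Figure D4:**
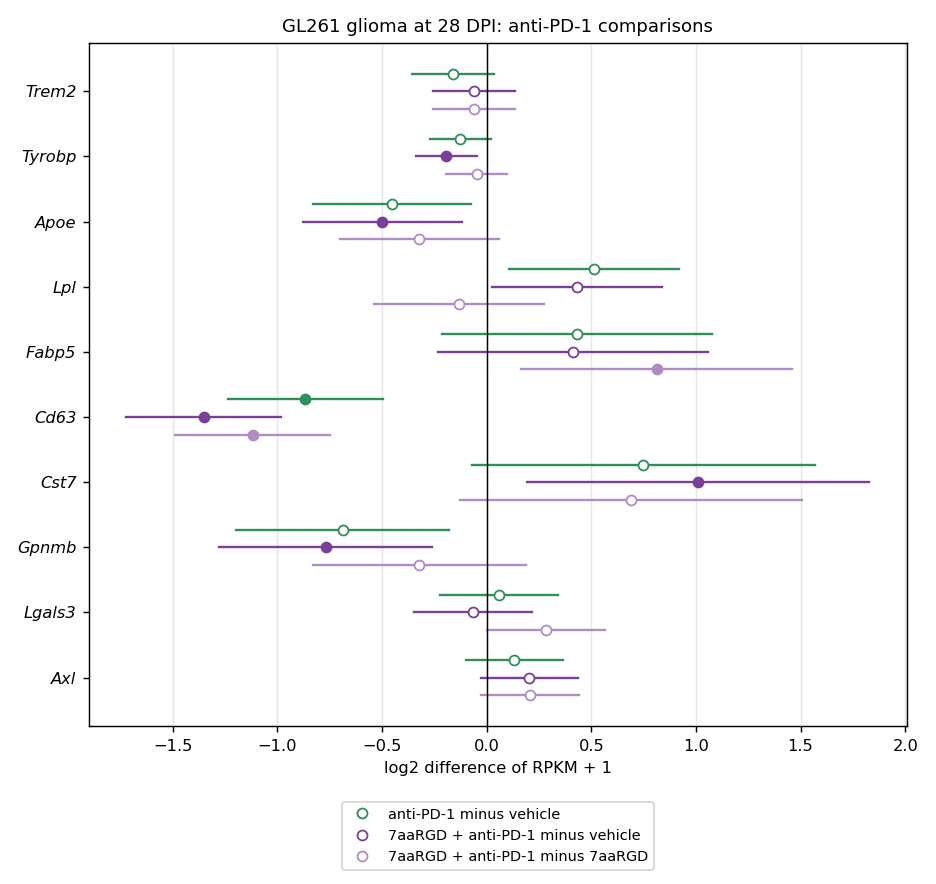
Differences at 28 DPI for anti-PD-1, and for the combination against vehicle and against 7aaRGD, in log2 of RPKM + 1 (x axis), for the 10 genes (y axis). Circles are limma estimates, filled where past the threshold, and lines are 95% intervals. Cd63 is filled to the left of 0 in all 3 comparisons (-0.87, -1.35 and -1.12).

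The same pathway lists were counted for the combination against vehicle, where 43.3% of all genes passed. The disease-associated and lipid lists, with 10 of 26 and 9 of 22 genes called, were under that share. Of the homeostatic microglia genes, 7 higher and 0 lower of 14 tested passed the threshold (median 0.63), among them Olfml3 (45.3 to 112 RPKM, log2 difference 1.36, adjusted p = 0.00131), Siglech (33.9 to 65.2 RPKM, log2 difference 0.95, adjusted p = 0.0137), Gpr34 (17.5 to 33.4 RPKM, log2 difference 0.89, adjusted p = 0.000286) and Sall1 (30.2 to 55.99 RPKM, log2 difference 0.88, adjusted p = 0.0102). Of the other disease-associated genes, 6 higher and 4 lower of 26 tested passed (median 0.0034). Capg (42.7 to 136 RPKM, log2 difference 1.64, adjusted p = 1.77e-05) and Hif1a (30.96 to 83.2 RPKM, log2 difference 1.38, adjusted p = 4.79e-06), the oxygen-sensing transcription factor gene, rose, and Cadm1 (8.08 to 4.43 RPKM, log2 difference -0.75, adjusted p = 0.00461) fell. Ccl4 (67.3 to 109 RPKM, log2 difference 0.75, adjusted p = 0.0497) was near the threshold, and 9 of 16 alternative settings ended its call, among them leaving out vehicle sample 1 or 4 or any combination sample (adjusted p from 0.0871 to 0.136). The lipid list had 4 higher and 5 lower of 22 tested, with falls of the HDL receptor gene Scarb1 (14.01 to 6.57 RPKM, log2 difference -0.99, adjusted p = 1.23e-05) and of Nceh1 (27.03 to 16.4 RPKM, log2 difference -0.68, adjusted p = 0.00549), a cholesteryl ester hydrolase, and a rise of Nr1h3 (13.95 to 27.5 RPKM, log2 difference 0.91, adjusted p = 0.00647). The median over all genes tested was -0.049.

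Around TREM2 and DAP12, 4 higher and 5 lower of 16 tested passed. Adam17 (28.4 to 44.04 RPKM, log2 difference 0.62, adjusted p = 0.000151), a protease that sheds TREM2 from the surface, and Sirpb1a (10.1 to 15.9 RPKM, log2 difference 0.61, adjusted p = 0.0149) rose, while Hcst (19.1 to 10.5 RPKM, log2 difference -0.81, adjusted p = 0.000243), which encodes the adaptor DAP10, and Cd33 (44.4 to 29.8 RPKM, log2 difference -0.56, adjusted p = 0.00556) fell. Of the TAM list, 2 higher and 1 lower of 9 tested passed, with rises of Socs1 (9.17 to 24.3 RPKM, log2 difference 1.35, adjusted p = 0.00163) and Pros1 (16.8 to 29.3 RPKM, log2 difference 0.79, adjusted p = 0.0238) and a fall of Mfge8 (5.34 to 3.12 RPKM, log2 difference -0.62, adjusted p = 0.0135), a bridging protein for dead-cell uptake. Among the MiT/TFE factors, Tfe3 (13.3 to 16.5 RPKM, log2 difference 0.29, adjusted p = 0.00139) rose. The call of Pros1 ended without vehicle sample 1 or 4 or any combination sample (adjusted p from 0.0511 to 0.0696). Those of Siglech, Sirpb1a and Mfge8 ended without combination sample 1 (0.0574), 2 (0.0621) and 3 (0.0646), respectively, and no call of the other list genes named for this comparison ended in any setting. With anti-PD-1 alone, 23.1% of all genes passed, 10.9% higher and 12.2% lower. The same 6 lists had 2 higher and 0 lower of 14 tested (homeostatic) and 3 higher and 3 lower of 26 (disease-associated). There were 1 higher and 2 lower of 22 (lipid) and 3 higher and 3 lower of 16 (TREM2-DAP12). The TAM and MiT/TFE lists had 1 higher and 0 lower each, of 9 and 4 tested. With 7aaRGD at 28 DPI, 0.798% of all genes passed, and 1 gene of all 6 lists did, with the same numbers tested. It was Cx3cr1 (273 to 375 RPKM, log2 difference 0.46, adjusted p = 0.0331), which is homeostatic. Its call ended in 13 of 17 alternative settings, among them each of the 8 that left out a sample (adjusted p from 0.0543 to 0.128) and the fit of only the groups compared (0.129). No gene of these lists passed with either peptide at 21 DPI or in U87-MG.

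The genes most like each member were sought by Pearson's r of log2(RPKM + 1) over all 35 samples, each taken relative to the vehicle mean of its table, among 9092 genes. The samples share tables, and the 3 naïve samples lie far from the rest, so r over the 32 tumor-bearing samples is given as the second value. Cd63 was closest to Ttyh2 (r = 0.93, 0.95), Klf9 (r = 0.91, 0.91) and Def6 (r = 0.91, 0.91). Tyrobp was closest to Gngt2 (r = 0.81, 0.86), Ptpn18 (r = 0.80, 0.82) and Psenen (r = 0.77, 0.89). Lpl was closest to Hspa4 (r = 0.79, 0.78), Mdn1 (r = 0.74, 0.73) and Smox (r = 0.72, 0.77). For these 3 members the second value was about as high as the first.

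For the other members named here, r was lower without the naïve samples. Trem2 was closest to Ptp4a3 (r = 0.98, 0.78) and Apoe to Acp5 (r = 0.95, 0.75). The genes close to Gpnmb included Tnfsf13 (r = 0.98, 0.64). Cst7 was closest to Sdc3 (r = 0.94, 0.80), Lgals3 to Rbms1 (r = 0.99, 0.80) and Fabp5 to Anxa4 (r = 0.99, 0.83). Axl was closest to Npc2 (r = 0.98, 0.46), a lysosomal cholesterol carrier gene, and that value was the lowest of these without naïve samples.

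Between members over the 32 tumor-bearing samples, r was highest for Gpnmb with Cd63 (0.69), Trem2 with Tyrobp (0.69) and Apoe with Cd63 (0.57). It was lowest for Trem2 with Lgals3 (-0.64) and Tyrobp with Lgals3 (-0.56). These values describe the samples at hand and were not tested.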

How the data were processed

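Libraries of polyadenylated, strand-specific RNA from CD11b+ cells were made by the authors, who used Trimmomatic, STAR (mm10) and HTSeq 0.11.1 for read counts. The step to the deposited table was not given in the sources used here. The deposited values behave as RPKM plus a constant of 2, which was subtracted. After this, in rows not constant over all samples of a table, between 12.57% and 13.97% of the values lie under 0. The residuals of both GL261 tables span 1 dimension fewer than their samples allow. Of 40 samples, 35 had a column, and the other 5 were not analysed here. The 3 tables were tested separately with limma 3.58.1 (R 4.3.3), with a mean-variance trend, on log2(RPKM + 1). Protein-coding genes were kept where the groups fitted averaged 1 RPKM or more, and p-values were adjusted over all genes tested. Values under 0 were kept, except with the pseudocount of 0.1. Depth is unknown. The code was tested on simulated data.

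The 10 members and the pathway and marker lists were chosen with earlier results of these data known. All members were tested in every comparison except Gpnmb in U87-MG. Up to 4 genes per list were named, those past the threshold with the largest log2 difference, and up to 3 genes per member by Pearson's r. Some genes that these rules name are not reported here. Anti-PD-1 samples were grouped by title, since a further label names their antibody with other numbers. Alternatives were other pseudocounts (0.1 and 5 RPKM), filters, scalings and groups in the fit, each sample left out in turn, a replicate block, and 1 residual degree of freedom less, which was chosen after the data were seen. The residuals of same-numbered samples had r over 0.1 for 1 of 18 pairs in the 21 DPI table (r from -0.77 to 0.12). In the 28 DPI table this held for 3 of 19 (r from -0.50 to 0.37). The numbers were not taken as pairs. The residuals of both GL261 tables lack 1 dimension, so these r cannot show that pairing was absent.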

Additional observations from a re-analysis of the deposited data

How the results depend on the processing

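No call of a pathway gene in vehicle against naïve ended under any alternative, while in the comparisons at 28 DPI 1 of 1 (7aaRGD), 9 of 15 (anti-PD-1), 5 of 20 (combination) and 8 of 20 (combination against 7aaRGD) did. The direction of each called member was the same in every alternative. In vehicle against naïve, 7 members passed, and 7 to 9 with 1 sample left out. In anti-PD-1 against vehicle, where 1 passed, 2 did with a mean of at least 5 RPKM, under median-of-ratios scaling or with only the groups compared in the fit, and 1 to 2 did with 1 sample left out. In the combination against vehicle, where 5 passed, 2 did without a filter on low values, 3 with 1 residual degree of freedom less, and 1 to 4 with 1 sample left out. In the combination against 7aaRGD, where 2 passed, 1 did without that filter, with all genes that have a name or with 1 residual degree of freedom less, and 1 to 3 did with 1 sample left out. No member passed in any other comparison under any alternative run.

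The replicate numbers were not taken as pairs. With a replicate block, 2 members passed in anti-PD-1 against vehicle against 1 without it, and Cd63 also passed in vehicle against naïve (adjusted p = 0.0353). Over the pathway gene calls counted above, the block ended 9, all at 28 DPI. Among them were Ccl4 in the combination against vehicle (adjusted p = 0.105) and Cx3cr1 in 7aaRGD against vehicle (adjusted p = 0.117). The others were Cadm1, Ctsl and Dgat2 in anti-PD-1 against vehicle, and Olfml3, Cst3, Mertk and Mitf in the combination against 7aaRGD. U87-MG columns carry no numbers, so no block could be fitted there.

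Over all genes, 14 passed with 7aaRGD at 21 DPI and 0 to 121 under alternatives, the most without vehicle sample 3. At 28 DPI with 7aaRGD these were 78 and 0 to 93, with 0 when only the groups compared were fitted, and for the combination against anti-PD-1 4 and 0 to 26. For 7aaRAE in U87-MG they were 1 and 0 to 32. In vehicle against naïve 8087 passed, and 5302 with a mean of at least 5 RPKM, and in anti-PD-1 against vehicle 2258, and 1368 without anti-PD-1 sample 2. Where the main count was 0, alternatives gave up to 7. The number of samples limits small differences, and depth cannot be judged from these values.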
